A study of Homo sapiens with 12 samples.

Results

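This account covers 8 human genes that move, make, convert or regulate organic lens osmolytes: SLC5A3, SLC6A6, SLC6A12, NFAT5, AKR1B1, SORD, ISYNA1 and IMPA1. They were found by symbol among the 60641 symbols of a read count table from SRA01/04 cells, and all 8 were present. SLC5A3 and SLC6A6 were chosen by their measured falls with asparagine in these same libraries, so their values in the asparagine comparisons are given as a description, with no test. The rule names no measured value for the other 6, though all 8 were chosen with earlier results of these data known.

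SRA01/04 is an immortalised line of human lens epithelium, and its RNA was sequenced in 4 groups of 3 libraries after 24 hours. DHN-A cells received both 1,2-dihydroxynaphthalene (1,2-DHN, a naphthalene metabolite) and asparagine, DHN cells 1,2-DHN, NC-A cells asparagine, and NC cells neither. The sources used here give no doses, no order of addition and nothing on whether replicates came from separate cultures. The p-values therefore rest on the spread between libraries, which may be technical. All libraries come from 1 line.

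Cells of the lens keep their volume by holding small organic solutes, the osmolytes. SLC5A3 brings in myo-inositol, SLC6A6 taurine and SLC6A12 betaine, and NFAT5 (also called TonEBP) is the transcription factor that raises these transporters and aldose reductase when the medium is hypertonic. In the polyol pathway, aldose reductase (AKR1B1) turns glucose into sorbitol and sorbitol dehydrogenase (SORD) turns sorbitol into fructose. Sorbitol held in lens cells is a known route to sugar cataract. ISYNA1 makes inositol phosphate from glucose 6-phosphate, and IMPA1 removes the phosphate to give free myo-inositol.

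SLC5A3 lies at chr21:34073570-34106262 on the plus strand, entirely inside MRPS6, a gene for a protein of the small mitochondrial ribosome subunit (coordinates of GRCh38, GENCODE release 29). Both genes have the same upstream window in RefSeq's promoter table (GRCh38.p14), which is printed because their levels are compared below. A window upstream of AKR1B1, which passed no test, is printed beside it. It is one of the AKR1B1 windows in the table and was taken because it lies outside the gene as GENCODE annotates it. Each covers 195 bases, from 250 to 56 bases before the RefSeq start. Capitals mark GGGCGG (the GC box) on either strand.
SLC5A3 and MRPS6, chr21:34073328-34073522, plus strand: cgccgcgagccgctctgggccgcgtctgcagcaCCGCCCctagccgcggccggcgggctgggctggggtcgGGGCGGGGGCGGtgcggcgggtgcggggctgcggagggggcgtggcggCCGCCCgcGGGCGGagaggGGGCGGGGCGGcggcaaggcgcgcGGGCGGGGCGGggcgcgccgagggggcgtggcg
AKR1B1, chr7:134459295-134459489, minus strand: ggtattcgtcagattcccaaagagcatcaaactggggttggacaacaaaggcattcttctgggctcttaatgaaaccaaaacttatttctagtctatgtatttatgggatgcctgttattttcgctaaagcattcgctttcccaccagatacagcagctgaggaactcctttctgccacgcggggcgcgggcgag

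The SLC5A3 window was 88.2% G and C, and 99.9% of the 35116 promoters in the table had a lower share in the same window. It held 9 GGGCGG matches, some of which overlap each other. The printed AKR1B1 window was 47.2% G and C and held none. The other AKR1B1 window in the table (chr7:134459156-134459350), which overlaps the gene as GENCODE annotates it, was 68.7% G and C and held 1 GGGCGG match and 1 CCAAT match. GGGCGG occurred in 34.0% of all promoters. Searches on both strands for CCAAT (26.6% of all promoters) and for TGGAAA, the core of the sequences that NFAT proteins bind (14.9% of all promoters), found no match in either printed window, which says only that these letters are not there. Promoters on chromosome 8, where IMPA1 lies, were left out, so none was looked up for IMPA1. With that chromosome left out, a promoter was listed for 3 of the 8 genes.

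Libraries held between 12381071 and 27526206 counts. Library NC-A 1 stood apart: on the first principal component, which carried 33.9% of the variance, it lay at -65.1 and the other NC-A libraries at -12.5 and -10.4. Tests that use NC-A are therefore given with and without it. Levels below are in CPM, counts scaled to the library's size after its adjustment by trimmed mean of M values (TMM). Of 14 lens epithelium markers, 7 passed the filter on low counts, among them PAX6 at a mean of 25.9 CPM and SIX3 at 12.6 CPM, while CRYAA had 5 counts and FOXE3 31 counts over the 12 libraries. Fibroblast markers were present, with 5 of 7 tested and COL1A1 at 1005 CPM, and no keratinocyte or immune marker of 4 each was tested. The summed level of the lens epithelium markers, most of it VIM, ran from 3248 to 3291 CPM in DHN-A, from 2456 to 2565 CPM in DHN, from 3621 to 3704 CPM in NC-A and from 3499 to 3638 CPM in NC. That of the fibroblast markers ran from 1193 to 1262 CPM in DHN-A, from 819 to 871 CPM in DHN, from 1209 to 1216 CPM in NC-A and from 1381 to 1460.05 CPM in NC. The part of these shifts in the results below was not tested. In such bulk RNA, less RNA per cell and fewer cells expressing a gene cannot be told apart.

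Levels are compared between genes only per kilobase of the deposited gene length. In NC cells SLC5A3 had the highest level of the 8, at 31.4 ± 0.88 CPM per kilobase (SD, n = 3), above 92.4% of tested genes. AKR1B1 followed at 25.3 ± 0.25, NFAT5 at 12.8 ± 0.32, SLC6A6 at 10.1 ± 0.54 and SORD at 5.98 ± 0.23 CPM per kilobase. ISYNA1, at 4.44 ± 0.53, and IMPA1, at 4.28 ± 0.29 CPM per kilobase, did not differ beyond their spread. SLC6A12 was nearly absent, at 0.014 CPM per kilobase. In NC-A cells the order at the top was the other way round, with AKR1B1 at 24.0 ± 1.72 and SLC5A3 at 12.6 ± 0.29 CPM per kilobase.

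**Figure D1:**
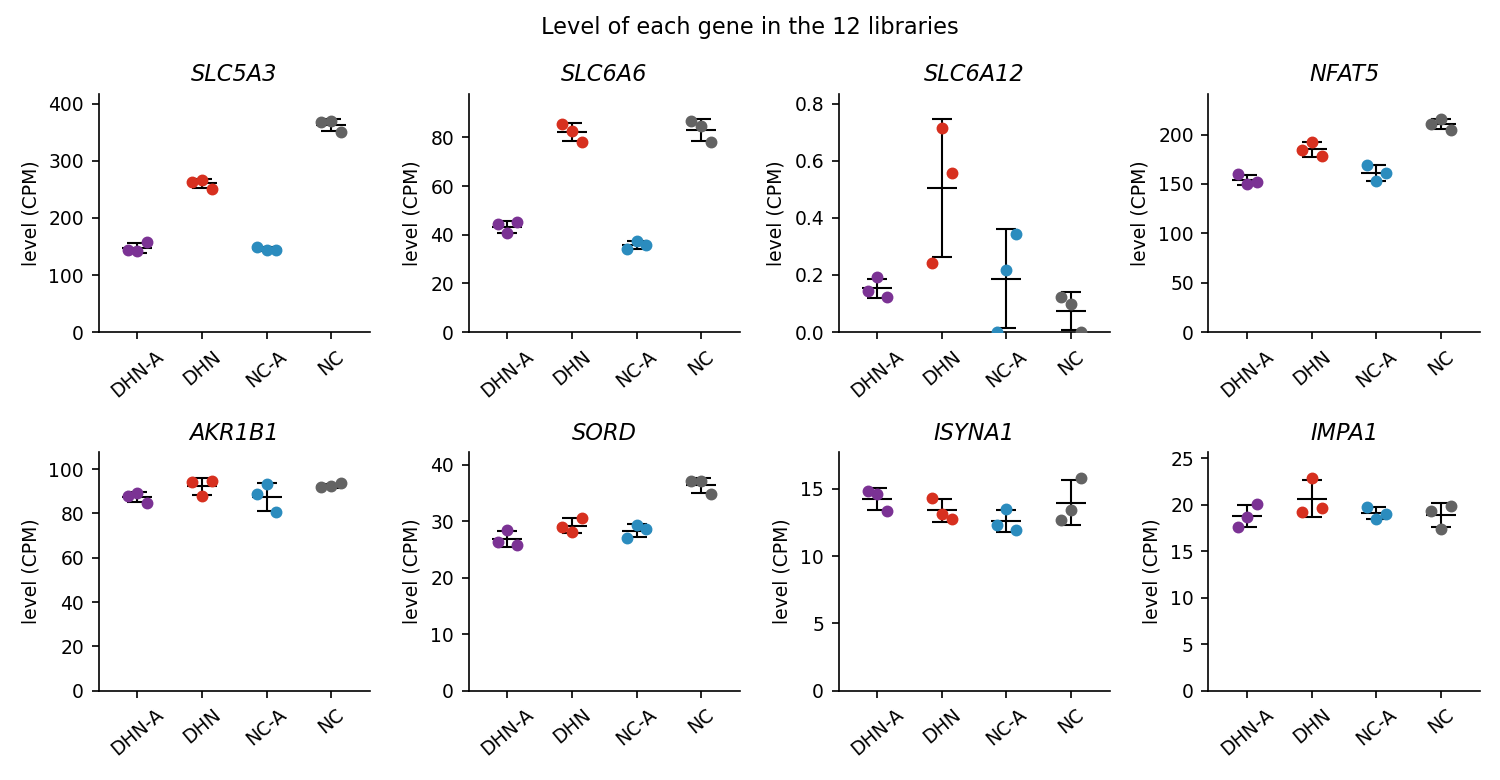
Level of each of the 8 genes (CPM, linear axis from 0) in the 12 libraries, by group. Points are libraries and bars are the mean and SD of 3. SLC5A3 and SLC6A6 lie lowest in both groups with asparagine, AKR1B1 stays between 80.7 and 94.9 CPM, and SLC6A12 stays below 1 CPM.

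The myo-inositol transporter SLC5A3 was at 144, 142 and 157 CPM in DHN-A, at 264, 267 and 251 CPM in DHN, at 149.8, 144 and 145 CPM in NC-A and at 368, 369.6 and 351 CPM in NC. The asparagine groups overlapped each other and lay below both groups without it, and DHN lay between them and NC. The log2 difference was -1.31 in NC-A against NC, a ratio of 0.402, and -0.82 in DHN-A against DHN, a ratio of 0.567, both given as a description. Without NC-A 1 the first was -1.33. The difference between the asparagine effects with and without 1,2-DHN was 0.50 on the log2 scale (0.52 without NC-A 1), again a description.

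All 4 groups entered the choice of SLC5A3, so its p-values for 1,2-DHN, given here, are not independent of that choice. SLC5A3 was tested with this limit. It fell by 28.3% in DHN against NC, at 261 ± 8.12 CPM in DHN and 363 ± 10.2 CPM in NC (SD, n = 3 each), a log2 change of -0.48 ± 0.04 (SE) with an adjusted p of 7.14e-14 by edgeR's quasi-likelihood test. With asparagine present it averaged 148 ± 8.38 CPM in DHN-A and 146 ± 3.36 CPM in NC-A. That log2 difference was 0.02, with a 95% interval of -0.07 to 0.10 and an adjusted p of 0.933 (edgeR). Without NC-A 1 it was 0.04, with an adjusted p of 0.833 (edgeR).

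The taurine transporter SLC6A6 (chr3:14402576-14489349, plus strand) was at 44.3, 40.6 and 45.2 CPM in DHN-A, at 85.5, 82.8 and 78.2 CPM in DHN, at 34.3, 37.5 and 35.8 CPM in NC-A and at 86.6, 84.6 and 78.2 CPM in NC. Here DHN and NC overlapped, and DHN-A lay above NC-A in every library. The described log2 difference was -1.21 in NC-A against NC (-1.18 without NC-A 1) and -0.92 in DHN-A against DHN, ratios of 0.432 and 0.529. The described difference between those effects was 0.29 (0.26 without NC-A 1). In DHN against NC the log2 difference was -0.02, with a 95% interval of -0.12 to 0.09 and an adjusted p of 0.836 (edgeR). The DHN and NC libraries also entered the choice of SLC6A6.

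In DHN-A against NC-A, whose libraries also entered its choice, SLC6A6 was 20.8% higher, at 43.3 ± 2.47 CPM in DHN-A and 35.9 ± 1.60 CPM in NC-A (SD, n = 3 each). The log2 change was 0.27 ± 0.06 (SE), with an adjusted p of 0.00605 by edgeR, and 0.24 with an adjusted p of 0.0458 without NC-A 1. Over the alternatives its adjusted p ran from 0.000326 to 0.0458. As SLC6A6 was chosen for its falls in DHN-A and NC-A, these p-values are not independent of that choice. SLC6A6 shares 239 exon bases with GRIP2 on the opposite strand. SLC6A6 had 14467 counts over the 12 libraries and GRIP2 343.

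NFAT5, the transcription factor of the tonicity response (chr16:69565094-69704666, plus strand), was at 159.8, 150.2 and 152 CPM in DHN-A, at 185, 193 and 178 CPM in DHN, at 169, 153 and 161 CPM in NC-A and at 211, 215 and 205 CPM in NC. NC lay above every other library, and DHN lay above both asparagine groups. NFAT5 fell by 12.1% in DHN against NC, with a log2 change of -0.19 ± 0.04 (SE) and an adjusted p of 0.000317 (edgeR). It fell by 23.6% in NC-A against NC, with a log2 change of -0.39 ± 0.04 and an adjusted p of 1.6e-09 (edgeR) (log2 -0.42 and adjusted p 4.36e-10 without NC-A 1). It fell by 16.7% in DHN-A against DHN, with a log2 change of -0.26 ± 0.04 and an adjusted p of 1.12e-06 (edgeR).

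Those NFAT5 falls were smaller in size than the SLC5A3 and SLC6A6 differences in the same asparagine comparisons, and no test of that difference was made. SLC5A3 and SLC6A6 were chosen for their falls there and NFAT5 was not, so this order is favoured by the choice. In DHN-A against NC-A the NFAT5 log2 difference was -0.06, with a 95% interval of -0.15 to 0.02 and an adjusted p of 0.596 (edgeR; 0.896 without NC-A 1). An mRNA level says nothing of the activity of the NFAT5 protein.

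SLC6A12, the betaine transporter (chr12:190077-214570, minus strand), was too low for the filter and was not tested with the other genes. It had 4, 5 and 3 counts in DHN-A, 3, 15 and 12 counts in DHN, 0, 3 and 6 counts in NC-A and 2, 2 and 0 counts in NC, or 55 counts in all. Per group that is 0.15 CPM in DHN-A (95% exact Poisson interval 0.08 to 0.27), 0.55 CPM in DHN (0.37 to 0.78), 0.20 CPM in NC-A (0.09 to 0.38) and 0.07 CPM in NC (0.02 to 0.17), intervals that cover counting error only. The counts in DHN are thus above those in NC, mainly through DHN 2 and DHN 3. With no filter the log2 difference in DHN against NC was 2.83, with an adjusted p of 0.00762 (edgeR), and in DHN-A against DHN it was -1.71, with an adjusted p of 0.0911 (edgeR).

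SLC6A13, a GABA and taurine transporter of the same family, had 15, 7 and 4 counts in DHN-A, 28, 30 and 25 counts in DHN, 5, 5 and 5 counts in NC-A and 3, 6 and 4 counts in NC. Every DHN library was above every other library. It reached the filter's 0.476 CPM in all 3 DHN libraries, in 1 DHN-A library and in no other, so it was tested because it was high in DHN. Its log2 differences, -2.23 for DHN-A against DHN and 2.83 for DHN against NC, are therefore given as a description. Whether the counting split reads between SLC6A13 and SLC6A12 was not tested.

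Aldose reductase, AKR1B1 (chr7:134442350-134459284, minus strand), was at 87.9, 89.3 and 84.9 CPM in DHN-A, at 94.3, 87.9 and 94.9 CPM in DHN, at 88.8, 93.1 and 80.7 CPM in NC-A and at 91.9, 92.2 and 93.6 CPM in NC. The groups overlapped in every comparison. The log2 difference was -0.01 in DHN against NC (95% interval -0.10 to 0.09), -0.08 in NC-A against NC (-0.18 to 0.02), -0.08 in DHN-A against DHN (-0.18 to 0.02) and 0.0004 in DHN-A against NC-A (-0.10 to 0.10). No AKR1B1 comparison passed the threshold, with adjusted p between 0.193 and 0.999 (edgeR). Without NC-A 1 the log2 difference was 0.01 for DHN-A against NC-A (adjusted p 0.962, edgeR), and -0.10 for NC-A against NC (adjusted p 0.272, edgeR).

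AKR1B10, an aldo-keto reductase close to AKR1B1 in sequence, was very low, with 8, 3 and 6 counts in DHN-A, 6, 11 and 18 counts in DHN, 1 count in each NC-A library and 2, 2 and 0 counts in NC. It reached the filter's 0.476 CPM in the 3 DHN libraries and in no other, so its log2 difference of 3.12 in DHN against NC is likewise a description. AKR1B1 had 21385 counts over the 12 libraries.

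Sorbitol dehydrogenase, SORD (chr15:45023104-45077185, plus strand), was at 26.4, 28.5 and 25.8 CPM in DHN-A, at 28.9, 28.1 and 30.7 CPM in DHN, at 27.1, 29.3 and 28.7 CPM in NC-A and at 37.2, 37.1 and 34.8 CPM in NC. All 9 treated libraries lay below the NC libraries. It fell by 19.5% in DHN against NC (log2 -0.31 ± 0.07, SE; adjusted p 0.000197, edgeR) and by 21.8% in NC-A against NC (log2 -0.36 ± 0.07; adjusted p 0.000152, and 0.00207 without NC-A 1, edgeR). In DHN-A against DHN its log2 difference was -0.12, with a 95% interval of -0.26 to 0.02 and an adjusted p of 0.158 (edgeR). For DHN-A against NC-A it was -0.08, with an interval of -0.22 to 0.06 and an adjusted p of 0.731 (edgeR; 0.649 without NC-A 1).

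SORD has a near-identical copy, the pseudogene SORD2P, with which the counting could split its reads. SORD2P averaged 6.57 ± 0.94 CPM in DHN-A, 4.89 ± 0.61 CPM in DHN, 5.83 ± 0.99 CPM in NC-A and 5.87 ± 0.58 CPM in NC (SD, n = 3 each). It was not called in DHN against NC or in NC-A against NC, with adjusted p of 0.26 and 0.981 (edgeR). In DHN-A against DHN, where SORD differed by -0.12, SORD2P was higher by 0.40 ± 0.15 (log2, SE; adjusted p 0.0296, edgeR), a call lost under DESeq2 (adjusted p 0.0602) and without DHN-A 2, DHN-A 3, DHN 1 or DHN 2 (adjusted p 0.188, 0.0697, 0.144 and 0.0505, edgeR). The SORD values are uncertain to the extent that reads were split between the gene and its copy.

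ISYNA1, inositol 3-phosphate synthase (chr19:18434388-18438301, minus strand), was at 14.8, 14.6 and 13.4 CPM in DHN-A, at 14.3, 13.1 and 12.7 CPM in DHN, at 12.3, 13.5 and 11.9 CPM in NC-A and at 12.7, 13.4 and 15.8 CPM in NC. IMPA1, inositol monophosphatase (chr8:81657961-81686693, minus strand), was at 17.6, 18.7 and 20.05 CPM in DHN-A, at 19.3, 22.9 and 19.7 CPM in DHN, at 19.7, 18.5 and 19.0 CPM in NC-A and at 19.3, 17.4 and 19.9 CPM in NC. The groups of both genes overlapped in every comparison.

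No ISYNA1 or IMPA1 comparison passed the threshold. Among the comparisons of 2 groups, the ISYNA1 log2 difference was largest in DHN-A against NC-A, at 0.18 (95% interval -0.02 to 0.39; adjusted p 0.452, edgeR), and the IMPA1 difference in DHN-A against DHN, at -0.14 (-0.31 to 0.02; adjusted p 0.169, edgeR). In NC-A against NC they were -0.16 (-0.37 to 0.05) for ISYNA1 and 0.01 (-0.16 to 0.19) for IMPA1. Without NC-A 1 the ISYNA1 difference was 0.17 for DHN-A against NC-A (adjusted p 0.591, edgeR), and -0.15 for NC-A against NC (adjusted p 0.432, edgeR). The IMPA1 difference was then 0.001 for DHN-A against NC-A (adjusted p 1, edgeR), and -0.00897 for NC-A against NC (adjusted p 0.97, edgeR), both changed in sign. ISYNA1 shares 175 exon bases with SSBP4 on the opposite strand, which had 11723 counts in all against 3263 for ISYNA1. In the comparisons that do not use NC-A, SSBP4 was lower in DHN against NC (log2 -0.25, adjusted p 0.0107, edgeR). It was higher in DHN-A against DHN (log2 0.37, adjusted p 0.000174, edgeR). Whether SSBP4 reads were counted for ISYNA1 was not tested. IMPA2, the second inositol monophosphatase, fell by 22.6% in NC-A against NC (log2 -0.37 ± 0.10, SE; adjusted p 0.00672, and 0.0241 without NC-A 1, edgeR).

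Of the 6 genes not chosen by a fall with asparagine, 5 could be tested. In DHN against NC 2 were called, both lower (NFAT5 and SORD), where 38.7% of all 17889 tested genes were called at an adjusted p of 0.05. In NC-A against NC the same 2 were called, where 20.2% of all tested genes were. In DHN-A against DHN 1 was called (NFAT5), where 41.7% of all were, and in DHN-A against NC-A edgeR called 0, where 2.1% of all were. In that comparison 0 of the 5 had an unadjusted p under 0.05 by edgeR, and DESeq2 called 0. SLC6A12 passed the filter in 10 of the fits with a library left out, through its DHN libraries. Its higher level in DHN against NC in those 10 is therefore a description. With 5 genes these shares are not read as a result about the group.

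The interaction asks whether the asparagine effect differed with and without 1,2-DHN. Of the 5 tested genes edgeR called 0, where 25.7% of all tested genes were called, and DESeq2 called 0. At an unadjusted p under 0.05 edgeR had 2 of the 5, NFAT5 at a log2 difference of 0.12 (adjusted p 0.134) and SORD at 0.23 (adjusted p 0.0722). Without NC-A 1 the NFAT5 value was 0.16, with an adjusted p of 0.0485 (edgeR), and the SORD value 0.21, with an adjusted p of 0.158 (edgeR).

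**Figure D2:**
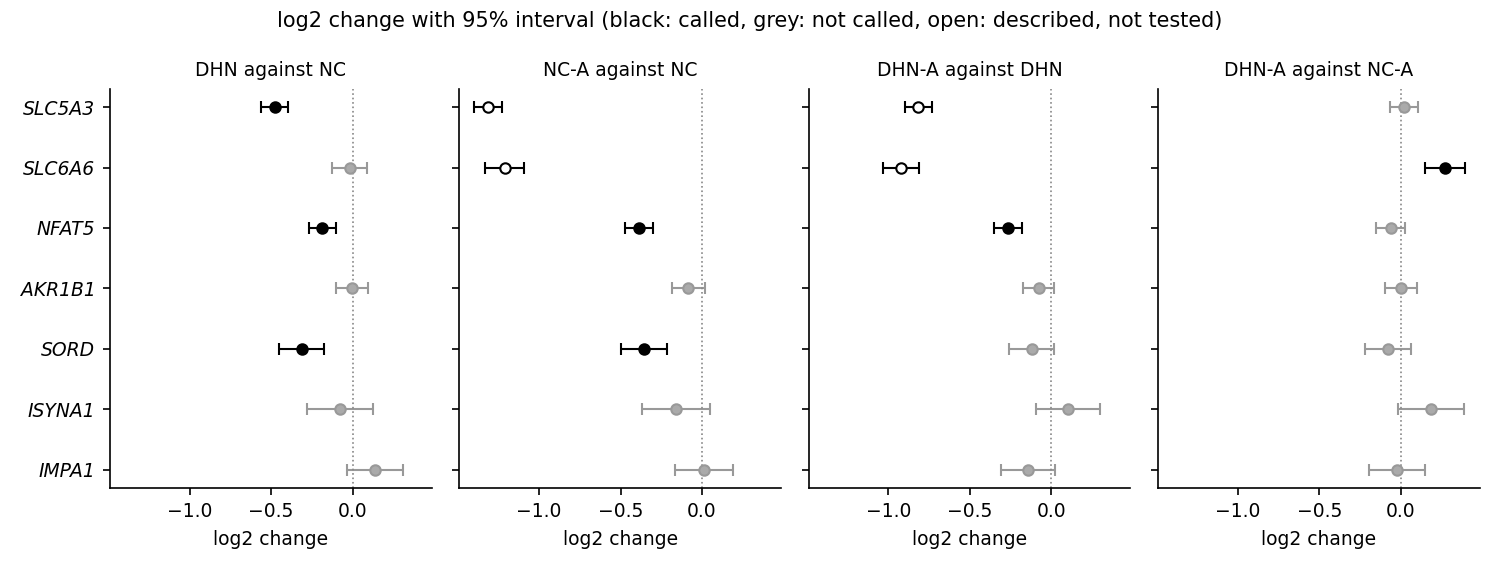
Log2 change with its 95% interval for the 7 tested genes in 4 comparisons. Black points passed an adjusted p of 0.05, grey points did not, and open points are SLC5A3 and SLC6A6 in the comparisons by which they were chosen, which carry no test. The other SLC5A3 and SLC6A6 points also rest on libraries used in that choice. NFAT5 and SORD lie left of 0 in the first 2 panels, and AKR1B1 lies between -0.08 and 0.0004 in all 4.

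MRPS6 gives a view of the locus from the gene that has the same upstream window as SLC5A3 in RefSeq's table. MRPS6 was at 80.1, 77.4 and 79.9 CPM in DHN-A, at 65.8, 67.7 and 65.6 CPM in DHN, at 72.7, 85.9 and 81.6 CPM in NC-A and at 87.8, 101 and 93.3 CPM in NC. It fell by 29.6% in DHN against NC, with a log2 change of -0.51 ± 0.05 (SE) and an adjusted p of 8.75e-11 (edgeR), close to the SLC5A3 value of -0.48. With asparagine, MRPS6 fell by 15.1% in NC-A against NC (adjusted p 0.000979, and 0.0272 without NC-A 1, edgeR) and rose by 19.2% in DHN-A against DHN (adjusted p 0.000118, edgeR).

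The ratio of SLC5A3 to MRPS6 counts was 1.80, 1.83 and 1.97 in DHN-A, 4.01, 3.94 and 3.83 in DHN, 2.06, 1.67 and 1.77 in NC-A and 4.20, 3.64 and 3.77 in NC. It averaged 1.87 ± 0.09 in DHN-A and 3.93 ± 0.09 in DHN, and 1.84 ± 0.20 in NC-A and 3.87 ± 0.29 in NC (SD, n = 3 each). Without NC-A 1 the NC-A mean was 1.72. Libraries without asparagine thus held a higher ratio, and 1,2-DHN left each ratio within the spread between replicates. These ratios contain the SLC5A3 values by which it was chosen and are given with no test. The 2 genes share 273 exon bases, 2.36% of those of SLC5A3, on the same strand, so reads there fit both genes.

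**Figure D3:**
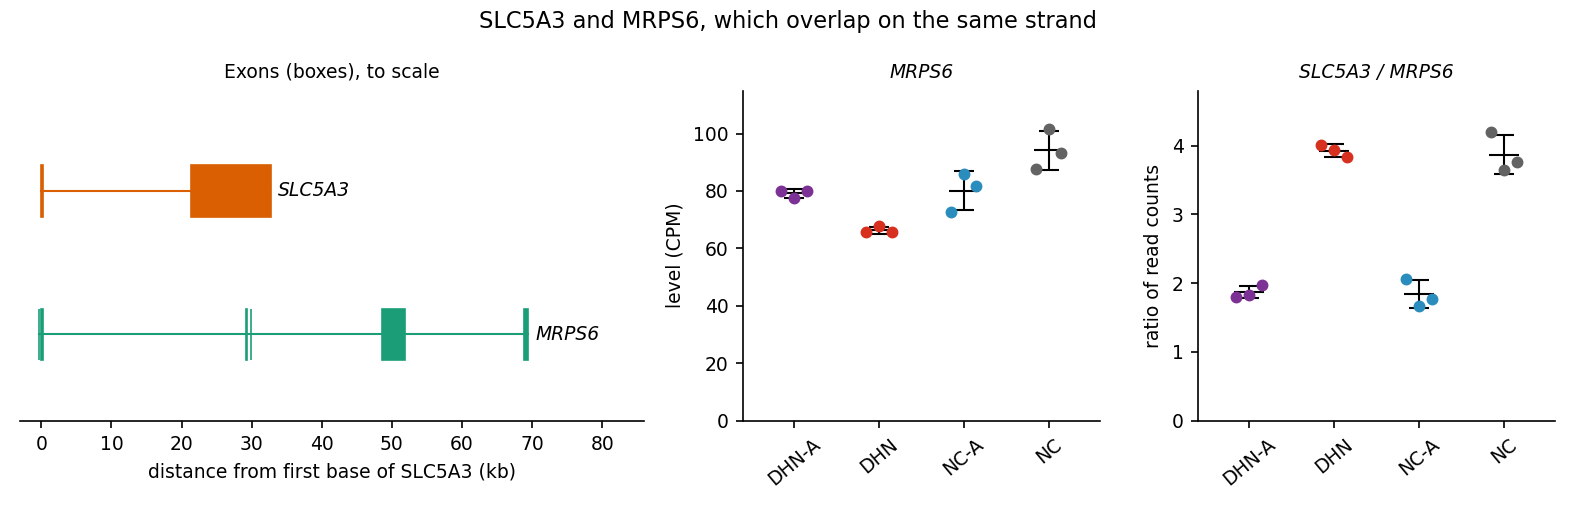
Left, exons of SLC5A3 and MRPS6 to scale, as distance in kilobases from the first base of SLC5A3. Middle and right, the MRPS6 level (CPM) and the ratio of SLC5A3 to MRPS6 counts in the 12 libraries, with mean and SD of 3. The ratio averages 1.87 in DHN-A and 1.84 in NC-A, against 3.93 in DHN and 3.87 in NC.

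Over the 12 libraries, log2 CPM of SLC5A3 followed that of NFAT5 (Pearson r = 0.96), SLC6A6 (0.94) and SORD (0.83) more closely than that of AKR1B1 (0.57), ISYNA1 (0.14) and IMPA1 (0.17). NFAT5 and SLC6A6 had r = 0.86. These r are descriptions over 12 libraries that share 4 treatments, and they follow from the group differences above.

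Among 12529 tested genes of 50 counts or more on average, the 5 whose log2 CPM was most like that of SLC5A3 over the 12 libraries were RPS6KC1 (r = 0.98), the neutral amino acid transporter SLC38A2 (0.98), the secreted hormone gene STC1 (0.98), the long non-coding RNA UCA1 (0.97) and SMIM3 (0.97). The 5 most like SLC6A6 were the non-coding RNA AL161431.1 (0.98), the protease inhibitor gene TFPI2 (0.98), the cytokine gene IL11 (0.97), the RNA helicase gene DDX3X (0.97) and PNRC1 (0.97). SLC38A2 averaged 184 ± 2.15 CPM in DHN-A, 243 ± 1.56 CPM in DHN, 188 ± 2.34 CPM in NC-A and 260.4 ± 13.5 CPM in NC (SD, n = 3 each). IL11 averaged 68.8 ± 5.77 CPM in DHN-A, 185 ± 6.21 CPM in DHN, 54.1 ± 2.55 CPM in NC-A and 151 ± 10.9 CPM in NC. That these genes were lower with asparagine follows from their choice by likeness to genes that were themselves chosen for it.

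**Figure D4:**
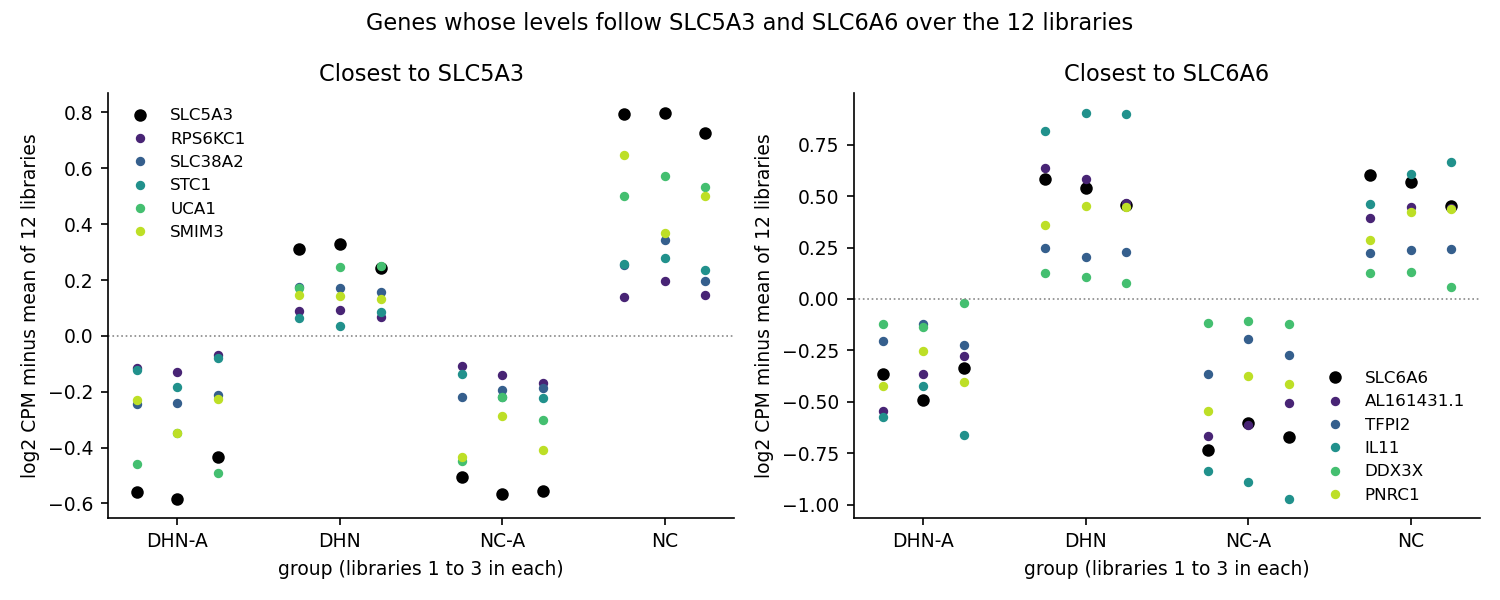
Log2 CPM of SLC5A3 (left) and SLC6A6 (right), in black, and of the 5 genes most like each, after subtracting each gene's mean over the 12 libraries. Each point is 1 library. The coloured points lie below 0 in DHN-A and NC-A and above 0 in DHN and NC, with r between 0.97 and 0.98.

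Other genes of the pathways were counted in 5 lists without the 8 genes. The lists were chosen with earlier results of these data known, so their shares are not independent of the data. The osmoprotective list holds genes known from the response to hypertonic medium, mainly from kidney cells. In DHN against NC 7 of its 14 tested genes rose and 3 fell (71.4% called, against 38.7% of all), with a median log2 change of 0.08 against 0.01 over all tested genes. In NC-A against NC none rose and 5 fell (35.7% against 20.2% of all; 6 called without NC-A 1; median -0.18 against 0.00306). In DHN-A against DHN 2 rose and 10 fell (85.7% against 41.7% of all), with a median of -0.39 against 0.01, and in DHN-A against NC-A 2 rose and 1 fell (21.4% against 2.1% of all; 2 called without NC-A 1).

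Heat shock proteins are among the osmoprotective genes. The inducible chaperone HSPA1A averaged 6.32 ± 0.72 CPM in DHN-A, 68.7 ± 1.46 CPM in DHN, 1.47 ± 0.14 CPM in NC-A and 2.13 ± 0.82 CPM in NC (SD, n = 3 each). It rose in DHN against NC (adjusted p 1.54e-32, edgeR), and its near-identical copy HSPA1B may share its reads. HSPA4L, an HSP110-type chaperone, averaged 48.8 ± 0.81 CPM in DHN-A, 101.8 ± 6.21 CPM in DHN, 46.5 ± 1.72 CPM in NC-A and 51.5 ± 2.84 CPM in NC. It rose in DHN against NC (log2 0.99 ± 0.05, SE; adjusted p 2.94e-20, edgeR). VIM, which is also a lens marker, fell by 0.52 on the log2 scale in DHN against NC (adjusted p 1.32e-18, edgeR). SLC38A2, also named above for its likeness to SLC5A3, fell by 0.47 on the log2 scale in NC-A against NC (adjusted p 9.93e-13, and 1.02e-11 without NC-A 1, edgeR).

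The volume regulation list holds ion channels, pumps, cotransporters and their kinases. In DHN against NC 10 of its 20 genes rose and 2 fell (60% called, against 38.7% of all; median 0.15), and in DHN-A against DHN 2 rose and 10 fell (60% against 41.7% of all; median -0.24). LRRC8A, the obligatory subunit of the volume-regulated anion channel, averaged 92.2 ± 3.09 CPM in DHN-A, 128 ± 1.92 CPM in DHN, 83.4 ± 1.58 CPM in NC-A and 97.7 ± 3.76 CPM in NC (SD, n = 3 each). It rose by 0.39 ± 0.04 (log2, SE) in DHN against NC (adjusted p 6.32e-10, edgeR) and fell by 0.47 ± 0.04 on the log2 scale in DHN-A against DHN (adjusted p 1.84e-12, edgeR). ATP1B1, a beta subunit of the sodium pump, averaged 27.6 ± 0.61 CPM in DHN-A, 45.1 ± 2.38 CPM in DHN, 26.1 ± 0.92 CPM in NC-A and 37.7 ± 1.30 CPM in NC. It fell by 0.71 ± 0.06 on the log2 scale in DHN-A against DHN and by 0.53 ± 0.07 in NC-A against NC (adjusted p 4.63e-13 and 6.56e-08, and for the second 1.69e-06 without NC-A 1, edgeR). In NC-A against NC 4 rose and 7 fell (55% against 20.2% of all), or 10 called without NC-A 1. In DHN-A against NC-A edgeR and DESeq2 each called 0 of the 20, where 2.1% of all were called, with 5 at an unadjusted p under 0.05 by edgeR. Without NC-A 1 edgeR again called 0.

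The hexose and polyol list holds glucose and fructose transporters and enzymes. In DHN against NC 1 of its 14 tested genes rose and 6 fell (50% called, against 38.7% of all; median -0.18). The glucose transporter SLC2A1 averaged 156 ± 6.91 CPM in DHN-A, 144 ± 0.52 CPM in DHN, 223 ± 3.35 CPM in NC-A and 309.7 ± 7.75 CPM in NC (SD, n = 3 each), and it fell in DHN against NC by 1.11 on the log2 scale (adjusted p 5.16e-27, edgeR). Hexokinase HK2 averaged 80.05 ± 2.29 CPM in DHN-A, 73.6 ± 3.79 CPM in DHN, 125 ± 3.16 CPM in NC-A and 125 ± 1.55 CPM in NC, and fell by 0.65 ± 0.05 on the log2 scale in DHN-A against NC-A (adjusted p 7.36e-15, edgeR; 5.08e-14 without NC-A 1). The genes of fructose use TKFC and KHK rose in DHN-A against DHN, by 0.94 ± 0.10 (adjusted p 2.57e-11) and 0.55 ± 0.13 (adjusted p 0.00064, edgeR) on the log2 scale. In that comparison 6 rose and 2 fell (57.1% against 41.7% of all), and in NC-A against NC 2 rose and 3 fell (35.7% against 20.2% of all, and again 5 called without NC-A 1). Only falls were called in DHN-A against NC-A, 3 in all, among them HK2 and SLC2A1 (21.4% against 2.1% of all, and 3 without NC-A 1).

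The list for myo-inositol supply and its phosphoinositide use had shares of called genes near those of all tested genes in the first 3 comparisons. In DHN against NC 3 of its 18 tested genes rose and 3 fell (33.3% called, against 38.7% of all). In NC-A against NC 3 fell (16.7% against 20.2% of all; 2 called without NC-A 1), in DHN-A against DHN 2 rose and 5 fell (38.9% against 41.7% of all), and in DHN-A against NC-A 1 rose and 1 fell (11.1% against 2.1% of all; 1 called without NC-A 1). The phosphatidylinositol 4-kinases went apart in DHN against NC, where PI4KB rose by 0.29 ± 0.05 and PI4KA fell by 0.29 ± 0.05 on the log2 scale (adjusted p 2.38e-06 and 1.95e-06, edgeR). The inositol polyphosphate kinase IPMK fell by 0.49 ± 0.08 on the log2 scale in DHN-A against DHN (adjusted p 7.02e-07, edgeR).

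In the list for taurine, betaine and glycerophosphocholine, 6 of 17 tested genes rose and 7 fell in DHN against NC (76.5% called, against 38.7% of all), and 3 rose and 3 fell in NC-A against NC (35.3% against 20.2% of all, or 8 called without NC-A 1). In DHN-A against DHN 6 rose and 4 fell (58.8% against 41.7% of all). GPCPD1, which breaks down the osmolyte glycerophosphocholine, averaged 32.1 ± 1.77 CPM in DHN-A, 22.8 ± 2.52 CPM in DHN, 33.9 ± 0.52 CPM in NC-A and 16.2 ± 0.70 CPM in NC (SD, n = 3 each), and it rose by 1.06 ± 0.08 (log2, SE) in NC-A against NC (adjusted p 2.05e-14, edgeR; 6.73e-14 without NC-A 1). ALDH7A1, which oxidises betaine aldehyde to betaine, averaged 111 ± 0.46 CPM in DHN-A, 78.6 ± 1.77 CPM in DHN, 119.6 ± 3.20 CPM in NC-A and 118 ± 4.03 CPM in NC. It fell in DHN against NC and rose in DHN-A against DHN (adjusted p 3.13e-15 and 3.54e-13, edgeR). In DHN-A against NC-A edgeR and DESeq2 each called 0 of the 17, where 2.1% of all were called, with 1 at an unadjusted p under 0.05 by edgeR. The count without NC-A 1 was also 0 (edgeR).

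**Figure D5:**
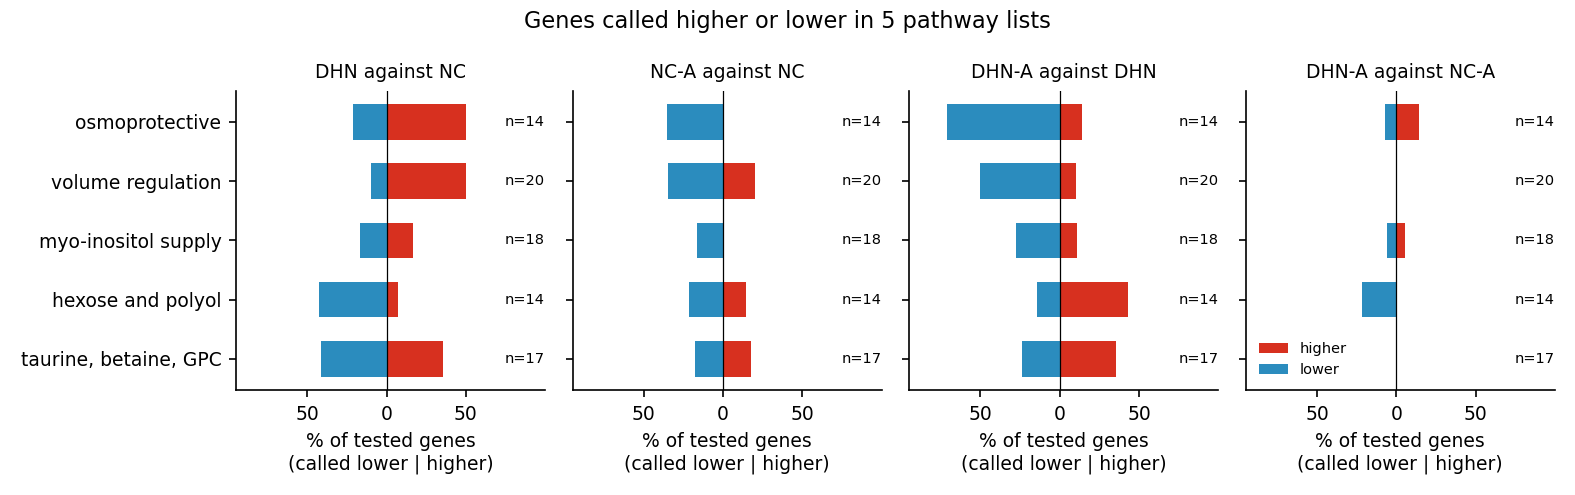
Share of the tested genes of each list (percent) called higher (red, right of 0) or lower (blue, left of 0) at an adjusted p of 0.05 in 4 comparisons. The osmoprotective list has 7 genes higher and 3 lower of 14 in DHN against NC, and 2 higher and 10 lower in DHN-A against DHN.

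Comparisons that share a group are not independent: DHN against NC and NC-A against NC share the NC libraries, and DHN against NC and DHN-A against DHN share the DHN libraries. A gene high in DHN alone will therefore rise in one and fall in the other.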

How the data were processed

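RNA from SRA01/04 cells was measured in 12 libraries of 4 groups, grouped by the labels. The deposited table holds raw whole-number counts per gene symbol with a gene length. Libraries were prepared with a stranded kit, per the labels' protocols. Bowtie and the genome build hg38 are named per the submitters' processing notes. The sources used here give no aligner version, counting tool, strand setting or annotation. All 12 count columns carried a sample name of the labels.

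Counts were fitted with edgeR 4.0.16 (R 4.3.3): filterByExpr on the 4 groups, TMM factors and a robust quasi-likelihood model with 1 mean per group over all 12 libraries. The filter left 17889 of 60641 symbols, and p-values were adjusted over these by Benjamini-Hochberg, with a threshold of 0.05. There were 5 comparisons, the interaction being the 1,2-DHN effect with asparagine minus that without. Standard errors come from each fold change and its test. The model was tested on counts simulated with the spread it had itself fitted, which cannot show a misfit of the model. It recovered 54.8% of 1.5-fold and 79.8% of 2-fold changes in a simulated DHN against NC, and 3.7% of its calls were false. Intervals for SLC6A12 are exact Poisson.

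The 8 genes, the 5 pathway lists and the marker lists were chosen with earlier results of these data known. Genes named in the text are the 8, those that could share reads with them, up to 3 called genes per list and comparison with the smallest p and a mean of at least 50 counts, and the 5 genes most like SLC5A3 and SLC6A6. Loci and exons come from GENCODE release 29, promoters from RefSeq (GRCh38.p14). No protein sequence was used here.

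Alternatives were RLE factors, DESeq2 1.42.0, no filter on low counts, a replicate block, a model of only the compared groups, and leaving out each library. Replicates of a group differed by more than sampling noise, so none was counted as a duplicate.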

Additional observations from a re-analysis of the deposited data

Results flagged for a closer look

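The asparagine effect on the neighbouring gene MRPS6 differed between cells with and without 1,2-DHN, by the interaction test over all genes (edgeR). That test called 25.7% of all tested genes, so such a call is common here. MRPS6 had an interaction of 0.49 on the log2 scale (adjusted p 1.65e-06), with a log2 change of 0.25 in DHN-A against DHN and of -0.24 in NC-A against NC. Without NC-A 1 the interaction was 0.43 (adjusted p 1.26e-05, edgeR). The related gene SLC6A13 had a described interaction of -2.86, and of -2.80 without NC-A 1. Its log2 difference was -2.23 in DHN-A against DHN and 0.63 in NC-A against NC, at counts of 3 to 30 per library. SLC6A13 passed the filter on low counts through the DHN libraries, where it is high, so these values are conditioned on that group and are given as a description, with no test.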

How the results depend on the processing

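Of 488 tested member values under the alternatives, 464 kept their direction and side of the threshold, 23 changed sign and 1 passed the threshold (NFAT5 in the interaction, without NC-A 1). The 100 described values of SLC5A3 and SLC6A6, chosen by those comparisons, kept their sign. The sign changes are of uncalled log2 differences near 0. Leaving out each replicate in turn gave -0.0622 to 0.0227 for SLC6A6, -0.0232 to 0.0353 for AKR1B1 and -0.142 to 0.0269 for ISYNA1 in DHN against NC, and -0.0423 to 0.0569 for IMPA1 in NC-A against NC. For DHN-A against NC-A it gave -0.0322 to 0.0469 for SLC5A3, -0.0556 to 0.0493 for AKR1B1, -0.0749 to 0.0245 for IMPA1 and -0.0791 to 0.0365 for MRPS6, and in the interaction -0.0491 to 0.0556 for AKR1B1. With no filter, IMPA1 was -0.0149 for NC-A against NC. For DHN-A against NC-A it was then 0.00899, and MRPS6 0.0155. Leaving out a replicate gave 2 to 3 called other members in DHN against NC, 1 to 2 in DHN-A against DHN and 0 to 2 in the interaction, the added gene being SLC6A12, which the filter then kept, and NFAT5 without NC-A 1. SLC6A12 was kept through its DHN libraries, where it is high, so its calls are not read as tests. The genes called in DHN-A against NC-A ran from 143 to 426, and were 230, 143, 226 and 170 without DHN-A 1, DHN-A 2, NC-A 2 and NC-A 3. With the replicate block AKR1B1 was -0.000154 in DHN-A against NC-A, 0 member calls changed, and 334 genes were called there. The r of library deviations ran from -0.176 to 0.229 for equal replicate numbers and from -0.267 to 0.291 for different ones. These ranges overlap, and with 3 libraries per group they cannot decide whether replicate numbers pair the libraries. The interaction could not be fitted to the compared groups alone. Of 420 list counts, 399 stayed within 1.5 times. SORD2P in DHN-A against DHN lost its call under DESeq2 (adjusted p 0.0602). AKR1B10 reached the filter only in DHN libraries, so its log2 difference there, -1.51 by edgeR and -1.52 by DESeq2, is a description. Depth limits SLC6A12, AKR1B10 and SLC6A13, for whose interaction DESeq2 gave no adjusted p. The cause of each change was not tested.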
